A study of Bos taurus with 11 samples.

Results

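The genes PMP22, MBP, CNP, SCN7A, NCAM1 and L1CAM, which in nerve are used as myelin and Schwann cell genes, were followed across 3 regions of the bovine mammary gland. They were chosen by symbol, and each stood on 1 line of the deposited table, so that they make up 6 of its 16279 genes. All 6 were among the 14596 genes tested, those with a mean of at least 10 in their highest region. The tissue came from untreated Holstein heifers of 10 to 12 months and was read by poly A RNA sequencing, to a depth of 7274474 to 11156909 reads recovered from the table per sample. Heifers 1, 3, 4 and 5 gave far stroma (n = 4) and parenchyma (n = 4), and heifers 3, 4 and 5 also gave close stroma (n = 3), 11 samples of 4 animals in all. Parenchyma is the ductal tissue of the gland, and stroma is the surrounding fat and connective tissue. The labels give no distance for far or close. The regions are bulk tissue with no cell sorting stated, so fewer cells of a type and less RNA per cell cannot be told apart.

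Schwann cells are the glia of peripheral nerves. Myelinating Schwann cells wrap a single large axon in a compacted membrane that holds PMP22 and MBP, whereas non-myelinating Schwann cells hold bundles of small axons in open grooves and keep adhesion molecules such as NCAM1 and L1CAM at their surface. The mammary gland is innervated by sensory and sympathetic fibres that run with vessels and ducts. None of the 6 genes is restricted to glia: PMP22 was also found as a growth arrest gene of mouse fibroblasts, MBP also gives golli transcripts in cells of the immune system in mouse and human, and NCAM1 marks human natural killer cells. The deposited values are per gene, so transcripts of 1 gene are not separated. Lengths of the genes were not used, and levels are therefore compared between regions and not between genes.

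The 6 genes did not move together. PMP22, L1CAM, NCAM1 and SCN7A were lower in parenchyma than in far stroma, and MBP and CNP were higher, in each case in all 4 heifers and with no overlap of the groups. Genes without overlap were not counted over all genes tested, so this is not read as a trait of the 6 genes. In this comparison 50.1% of the genes tested were called (limma, Benjamini-Hochberg adjusted p under 0.05), 26.1% higher and 24% lower, so a count of 6 called of 6, 2 higher and 4 lower, is read against that share. Between parenchyma and close stroma, where 7.12% of genes were called, 2.02% higher and 5.1% lower, SCN7A was the member called, lower in parenchyma. Between close and far stroma, where 17% were called, 11% higher and 5.99% lower, PMP22 was lower in close stroma and MBP and CNP were higher. The 3 comparisons share samples with each other, so their values for a gene are not independent.

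**Figure D1:**
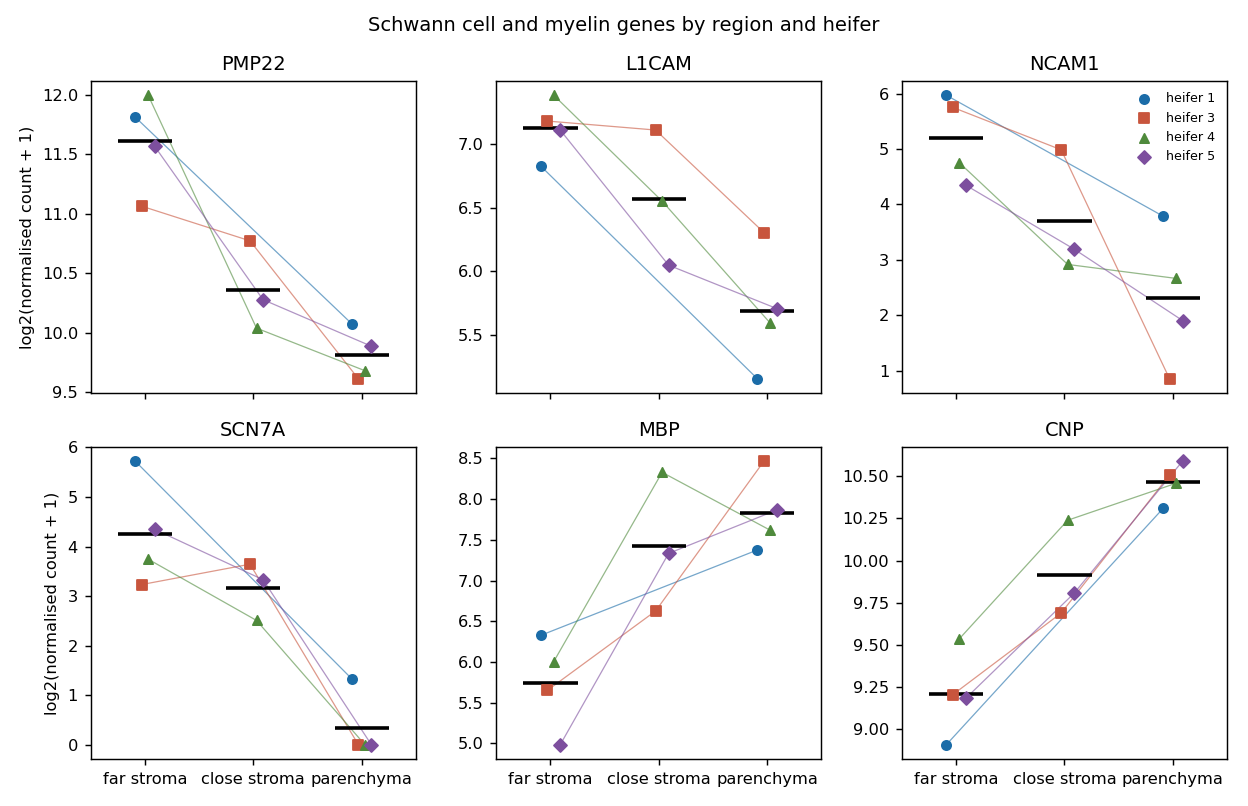
Normalised counts of the 6 genes on a log2(value + 1) axis, by region. Each symbol is 1 sample, thin lines join the samples of a heifer (heifer 1 has no close stroma sample), and black bars are region means on the log2 scale. PMP22, L1CAM, NCAM1 and SCN7A are lower in parenchyma than in far stroma in each heifer, and MBP and CNP are higher.

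PMP22 (ENSBTAG00000019070) encodes a tetraspan protein of compact myelin whose dosage is altered in human inherited neuropathies. Its normalised counts were 3594.89, 2140.09, 4082.09 and 3032.09 in the far stroma of heifers 1, 3, 4 and 5. In close stroma heifers 3, 4 and 5 had 1748.75, 1051.93 and 1241.62, and in parenchyma heifers 1, 3, 4 and 5 had 1078.24, 782.96, 820.98 and 946.64. Every far stroma sample lay above every sample of the other regions, while close stroma and parenchyma overlapped. PMP22 was lower in parenchyma than in far stroma by 1.79 ± 0.22 on the log2(value + 1) scale (estimate and SE, limma, adjusted p = 2.76e-05), which corresponds to means of 907 ± 134 and 3212 ± 834 normalised counts (SD). Close stroma was lower than far stroma by 1.25 ± 0.24 (adjusted p = 0.00305). The difference of parenchyma from close stroma was -0.55 ± 0.24 and did not pass the test (adjusted p = 0.181), although it was negative in 3 of 3 heifers.

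MBP (ENSBTAG00000022890) encodes the basic protein that holds the cytoplasmic faces of myelin together. It was at 79.28, 49.21, 63.2 and 30.64 normalised counts in far stroma of heifers 1, 3, 4 and 5, at 97.79, 320.64 and 160.3 in close stroma of heifers 3, 4 and 5, and at 165.13, 352.86, 195.22 and 232.54 in parenchyma of heifers 1, 3, 4 and 5. The far stroma samples were the 4 lowest of the 11, and the close stroma of heifer 4 lay within the range of parenchyma. MBP was higher in parenchyma than in far stroma by 2.09 ± 0.38 (log2, limma, adjusted p = 6.6e-04) and higher in close than in far stroma by 1.69 ± 0.41 (adjusted p = 0.0145). Parenchyma and close stroma differed by 0.40 ± 0.41, with parenchyma higher in 2 of 3 heifers (adjusted p = 0.597). The column of the close stroma of heifer 4 carries a letter the labels do not explain. Without that sample the difference of close from far stroma was 1.24 and no longer passed the test (adjusted p = 0.0922).

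CNP (ENSBTAG00000025762) encodes a phosphodiesterase of non-compact myelin that keeps cytoplasmic channels open in the myelin sheath. Far stroma held 479.58, 589.33, 741.48 and 580.61 normalised counts in heifers 1, 3, 4 and 5. Close stroma held 824.52, 1207.56 and 894.76 in heifers 3, 4 and 5, and parenchyma 1267.5, 1454.53, 1405.74 and 1539.89 in heifers 1, 3, 4 and 5. The 3 regions did not overlap, with far stroma lowest and parenchyma highest. CNP was higher in parenchyma than in far stroma by 1.26 ± 0.17 (log2, limma, adjusted p = 5.64e-05) and in close than in far stroma by 0.70 ± 0.18 (adjusted p = 0.0189). Without the close stroma of heifer 4, the latter was 0.54 and did not pass (adjusted p = 0.119). Parenchyma stood above close stroma by 0.55 ± 0.18 in 3 of 3 heifers without passing the test (adjusted p = 0.0862). With the heifer as a block the same difference was 0.63 and passed (adjusted p = 0.0378), as it did with DESeq2 on the recovered reads (adjusted p = 0.0456) and without the close stroma of heifer 4 (0.72, adjusted p = 0.0372).

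MBP and PMP22 moved in opposite directions, and their ratio within a sample does not depend on how libraries are scaled. The log2 ratio of MBP to PMP22 normalised counts was -5.50, -5.44, -6.01 and -6.63 in far stroma of heifers 1, 3, 4 and 5. It was -4.16, -1.71 and -2.95 in close stroma of heifers 3, 4 and 5, and -2.71, -1.15, -2.07 and -2.03 in parenchyma of heifers 1, 3, 4 and 5. Far stroma lay below all other samples, and close stroma spread from between the other regions into the range of parenchyma. The region means were -5.90 ± 0.55, -2.94 ± 1.22 and -1.99 ± 0.64 (SD), and parenchyma exceeded far stroma by 3.91. No test was made of this ratio, whose genes were chosen with these results known.

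**Figure D2:**
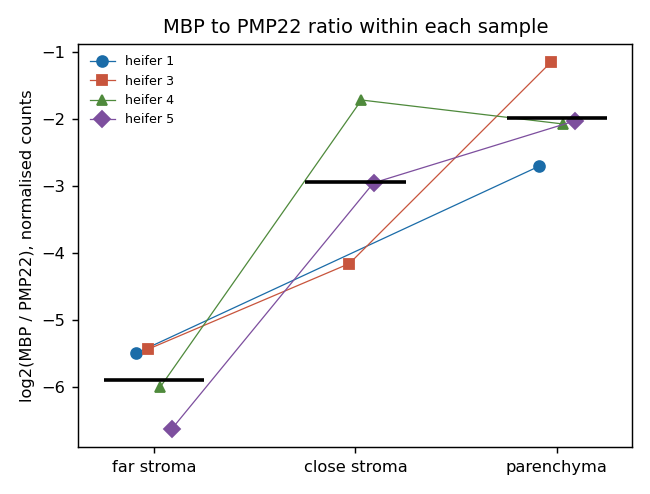
Log2 ratio of MBP to PMP22 normalised counts within each sample, by region, with lines joining the samples of a heifer and black bars at the region means. Far stroma lies between -6.63 and -5.44, below the other 2 regions, and the close stroma samples spread from -4.16 to -1.71.

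SCN7A (ENSBTAG00000019137) encodes a sodium channel of the voltage-gated family that in rodents acts as a sodium sensor and is found in non-myelinating Schwann cells. Its normalised counts were 51.87, 8.4, 12.41 and 19.35 in far stroma of heifers 1, 3, 4 and 5, and 11.5, 4.69 and 9.06 in close stroma of heifers 3, 4 and 5. In parenchyma it was at 1.51 in heifer 1 and at 0 in heifers 3, 4 and 5. These levels rest on 83 reads in far stroma, 27 in close stroma and 2 in parenchyma. Parenchyma did not overlap with either stroma, whereas close and far stroma did. Against far stroma the log2(value + 1) difference was -3.93 ± 0.59 (limma, adjusted p = 1.52e-04), a scale that understates the change of a gene this low. Pooled reads, scaled for library size, were 58.9-fold higher in far stroma, with an exact 95% interval of 15.8 to 494.4 that covers counting error only. Heifer 1 had the highest level in both regions, so the pooled ratio leans on 1 animal. Without the far stroma of heifer 1 the log2(value + 1) difference was -3.44 (limma, adjusted p = 4.54e-04). Against close stroma the difference was -2.83 ± 0.64 (adjusted p = 0.0197), and pooled reads were 20.04-fold higher in close stroma (5.04 to 173.9). This call was lost with a pseudocount of 5, without the close stroma of heifer 3 or 5 and without the parenchyma of heifer 3 or 4, with adjusted p from 0.0535 to 0.1. Close and far stroma differed by -1.10 ± 0.64 with 2 of 3 heifers lower (adjusted p = 0.255).

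NCAM1 (ENSBTAG00000005710) encodes the neural cell adhesion molecule, which binds itself on neighbouring cells. It was at 61.66, 52.81, 25.96 and 19.35 normalised counts in far stroma of heifers 1, 3, 4 and 5, at 30.68, 6.56 and 8.15 in close stroma of heifers 3, 4 and 5, and at 12.82, 0.81, 5.35 and 2.75 in parenchyma of heifers 1, 3, 4 and 5. Far stroma and parenchyma did not overlap, and close stroma overlapped with both. Parenchyma was lower than far stroma by 2.90 ± 0.66 (log2, limma, adjusted p = 0.00294). Neither the difference of parenchyma from close stroma (-1.39 ± 0.71, adjusted p = 0.258) nor that of close from far stroma (-1.51 ± 0.71, adjusted p = 0.166) passed the test, and each was negative in 3 of 3 heifers.

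L1CAM (ENSBTAG00000013462) encodes an adhesion molecule that guides axon growth and bundling. Far stroma held 112.55, 144.03, 165.9 and 137.09 normalised counts in heifers 1, 3, 4 and 5. Close stroma held 137.1, 92.82 and 65.21 in heifers 3, 4 and 5, and parenchyma 34.68, 78.05, 47.24 and 51.27 in heifers 1, 3, 4 and 5. The close stroma of heifer 3 was as high as far stroma and that of heifer 5 as low as parenchyma. L1CAM was lower in parenchyma than in far stroma by 1.43 ± 0.29 (log2, limma, adjusted p = 0.00126). The difference of parenchyma from close stroma was -0.88 ± 0.31 (adjusted p = 0.109) and that of close from far stroma -0.55 ± 0.31 (adjusted p = 0.239).

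**Figure D3:**
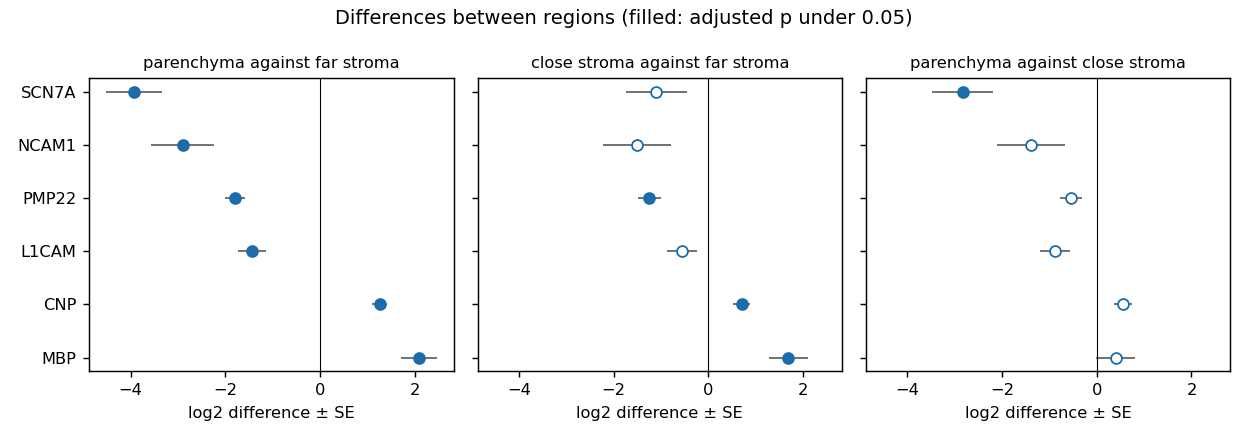
Log2(value + 1) differences of the 6 genes with standard errors in the 3 comparisons, which share samples. Filled points passed the test at an adjusted p under 0.05. All 6 points are filled for parenchyma against far stroma, with SCN7A lowest at -3.93 and MBP highest at 2.09, and SCN7A is the filled point for parenchyma against close stroma.

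The direction of these calls was read against the scaling of the libraries. With each library scaled to its total, the median over all genes in parenchyma against far stroma moved by 0.43 on the log2 scale, and the calls went from 3805 higher and 3501 lower to 6368 higher and 2093 lower. In close against far stroma the median moved by 0.34, and the calls went from 1600 higher and 875 lower to 2806 higher and 302 lower. In parenchyma against close stroma DESeq2 called 845 higher and 1216 lower, against 295 and 744 with limma. Under library-total scaling PMP22 was lower in parenchyma than in far stroma by 1.37 and L1CAM by 1.02, CNP was higher by 1.68 and MBP by 2.51, and every member kept its call and its direction in the 3 comparisons.

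Marker genes of other cell types also differed between the regions, beside the 6 genes. For adipocytes, the 7 listed markers had sums of 189892 to 286898 normalised counts in far stroma. The sums of close stroma were 49778 to 171988 and those of parenchyma 1737 to 2293, and 7 of 7 were lower in parenchyma than in far stroma. Fibroblast markers were lower in 5 of 7 and blood endothelium markers in 5 of 6, in the same direction as PMP22, L1CAM, NCAM1 and SCN7A. In the direction of MBP and CNP, 8 of 8 luminal and 8 of 8 basal epithelium markers were higher. The luminal sum ran from 240 to 420 in far stroma, while close stroma had 15244 to 31484 and parenchyma 28870 to 37639, and the basal marker TP63 was at 0 in far stroma. T and NK cell markers were higher in 7 of 7 tested, with sums of 500 to 1127 in far stroma, while close stroma had 2702 to 3149 and parenchyma 5176 to 6638. For smooth muscle and pericytes 1 of 6 was higher and 2 were lower, for macrophages 1 of 4 and for melanocytes 1 of 2 was lower, and the single skeletal muscle marker tested was higher. Between close and far stroma, where PMP22 was lower, 5 of 7 adipocyte and 4 of 7 fibroblast markers were lower. In that comparison 8 of 8 luminal, 7 of 8 basal and 7 of 7 T and NK cell markers were higher, as were MBP and CNP. Of the 6 endothelium markers 0 were called there. Between parenchyma and close stroma, where SCN7A was lower, 7 of 7 adipocyte and 4 of 6 endothelium markers were lower. Of the 7 fibroblast, 8 luminal and 8 basal markers 0 were called between parenchyma and close stroma, and 1 of 7 T and NK cell markers was higher. These counts stand beside the shares of all genes called in the same comparisons, which are given above. The part of these cell types in the results for the 6 genes was not tested.

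MAL and CDH19 are further genes known from Schwann cells. Both were chosen after their values were seen, so they cannot serve as a check of the label against the tissue. MAL is a proteolipid of myelin that T cells and epithelia also make. It was at 117.45, 79.22, 498.83 and 327.4 normalised counts in far stroma of heifers 1, 3, 4 and 5, at 161.07, 110.63 and 87.85 in close stroma of heifers 3, 4 and 5, and at 21.11, 19.51, 16.94 and 69.58 in parenchyma of heifers 1, 3, 4 and 5. Parenchyma lay below both stromas without overlap. MAL was lower in parenchyma than in far stroma by 2.85 ± 0.57 (log2, limma, adjusted p = 0.00122), and its difference from close stroma was -2.09 ± 0.62 and did not pass (adjusted p = 0.0608). CDH19, a cadherin of Schwann cells and their precursors, had 3.39 to 18 normalised counts in far stroma, while close stroma had 11.25 to 57.05 and parenchyma 0.89 to 37.54. Its regions overlapped and no comparison passed (parenchyma against far stroma 0.41 ± 0.87, adjusted p = 0.72). MBP and CNP were higher, MAL and PMP22 lower and CDH19 not called in the same comparison.

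Of 20 listed genes of myelin structure and lipids, 18 had a line in the table and 14 were tested, and MAG and PMP2 were not analysed here. In parenchyma against far stroma 7 were higher, 6 lower and 1 did not pass, with a median log2 difference of 0.30 against 0.06 over all genes tested. Over all genes tested 26.1% were called higher and 24% lower, and the counts of this and the later lists are read against that share. PMP22, MBP and CNP are among the 14. UGT8, the enzyme that makes the galactosylceramide of myelin, had 0 reads in all 4 far stroma samples, 47.94, 113.44 and 182.94 normalised counts in close stroma of heifers 3, 4 and 5, and 202.33 to 249.58 in parenchyma. It was at least 249.9-fold higher in parenchyma, counting 3 reads for the whole of far stroma as its upper limit, and it lay above the median of the list both as fitted and at this bound. GJB1, the connexin of non-compact myelin that is also made by epithelia, had 3 reads in far stroma and was 591-fold higher in parenchyma by pooled reads (95% counting interval 202 to 2870). PRX, which encodes periaxin, was higher by 2.08 ± 0.41 (adjusted p = 0.00104), and MPZL1, a glycoprotein found in many tissues, was lower by 0.94 ± 0.16 (adjusted p = 3.4e-04). CD81 was the tested gene that did not pass (-0.48 ± 0.20, adjusted p = 0.0585). In close against far stroma, where 11% of all genes tested were higher and 5.99% lower, 5 were higher and 1, PMP22, was lower.

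The list of Schwann cell identity and repair state held 24 genes, 21 of them with a line and 17 tested. In parenchyma against far stroma 5 were higher, 8 lower and 4 did not pass, with a median of -0.85 against 0.06 over all genes. SCN7A, NCAM1 and L1CAM are 3 of the 8. SOX10, the transcription factor of the Schwann cell lineage that is also made by mammary epithelium in mouse, was at 57.75 to 81.62 normalised counts in far stroma, while close stroma had 2351 to 4159 and parenchyma 5218 to 5922. SOX10 was higher in parenchyma than in far stroma by 6.32 ± 0.19 (limma, adjusted p = 1.05e-09). ERBB3, the neuregulin receptor of Schwann cells and of epithelia, was higher by 5.81 ± 0.35 (adjusted p = 7.71e-08). NGFR, the low-affinity neurotrophin receptor found on Schwann and basal epithelial cells, was higher by 5.33 ± 0.36 (adjusted p = 2.12e-07). S100B, a calcium-binding protein of glia that adipocytes also make, was lower, with means of 819 ± 251 in parenchyma and 3672 ± 658 in far stroma (-2.20 ± 0.25, adjusted p = 1.53e-05). GFRA3, FABP7 and ADGRG6, like CDH19, did not pass the test. JUN was called lower, a call that was lost with library-total scaling (adjusted p = 0.0552). DHH was called lower too (-1.62 ± 0.57, adjusted p = 0.0321), but not with the heifer as a block (0.0524), with library-total scaling (0.0724), without the far stroma of heifer 1, 4 or 5, without the parenchyma of heifer 1 or 5, or with heifers 3, 4 and 5 only (0.136). Epithelial markers were higher beside SOX10, ERBB3 and NGFR, 16 of 16 in all, and their part in these values was not tested.

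**Figure D4:**
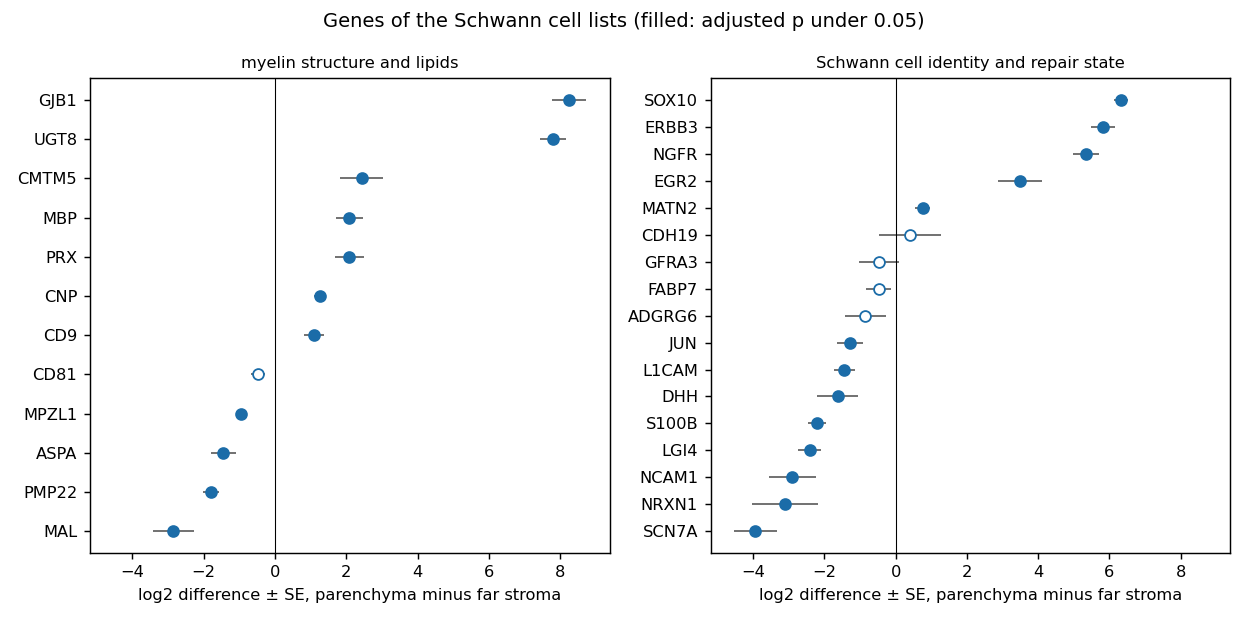
Log2(value + 1) differences of parenchyma from far stroma, with standard errors, for tested genes of the myelin list (left) and the Schwann cell identity list (right). Filled points passed the test at an adjusted p under 0.05. GJB1, UGT8, SOX10, ERBB3 and NGFR lie at 5.33 or above, while MAL, PMP22, NCAM1, SCN7A and L1CAM lie below 0.

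Signals that pass between axon and Schwann cell were given by 9 genes, all tested, of which 2 were higher, 3 lower and 4 did not pass in parenchyma against far stroma (median -0.36). With 26.1% of all genes tested higher and 24% lower in this comparison, these counts are not read as a trait of the list. NRG1, the ligand that drives myelination, rose from 1.09 ± 1.27 normalised counts in far stroma to 48.4 ± 5.7 in parenchyma (log2 difference 4.79 ± 0.48, limma, adjusted p = 6.08e-06), together with its receptor ERBB3. LGI4, which Schwann cells secrete to support myelination, was lower by 2.41 ± 0.31 (adjusted p = 4.57e-05) and so was its axonal receptor ADAM22 (-2.28 ± 0.64, adjusted p = 0.0102). The LGI4 difference of close from far stroma was -1.10 ± 0.34 (adjusted p = 0.0419), but this call was lost in 13 alternatives, with the heifer as a block (adjusted p = 0.0542), with library-total scaling (0.0891), with edgeR (0.0797) and without the close stroma of heifer 4 (0.225) among them. That of parenchyma from close stroma was -1.31 ± 0.34 (adjusted p = 0.0357), and it did not pass without the close stroma of heifer 3 (0.176) or 5 (0.0754), without the parenchyma of heifer 3 (0.0948), 4 (0.0971) or 5 (0.057), or with heifers 3, 4 and 5 only (0.0555). Of 18 listed axon and neuron genes 9 had a line and 7 were tested, with 3 higher, 2 lower and 2 that did not pass. TH, the rate-limiting enzyme of noradrenaline synthesis in sympathetic fibres, had 97.22 to 414.19 normalised counts in far stroma and 6.79 to 31.13 in parenchyma and was lower by 3.70 ± 0.55 (adjusted p = 1.25e-04). NEFM, a neurofilament subunit, went the other way, from 0 to 2.94 in far stroma to 73.14 to 696.77 in parenchyma (6.80 ± 0.70, adjusted p = 7.55e-06). UCHL1 (1.78 ± 0.45, adjusted p = 0.00577) and SYT1 (3.57 ± 0.93, adjusted p = 0.00685) were also higher. NEFH, a further neurofilament subunit, did not pass (log2 difference 0.05, limma, adjusted p = 0.949). STMN2 had 1.2 to 74.49 normalised counts in far stroma and 0 to 0.92 in parenchyma. Epithelial markers were higher in the same comparison, and which cells gave the reads of the axon genes and of NRG1 was not tested.

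Relatives of the 6 genes were compared by family. In the PMP22 family 3 of 4 tested genes were lower in parenchyma than in far stroma and 1 did not pass. PMP22 itself is 1 of these 4, and without it 2 of 3 were lower. EMP1, an epithelial membrane protein of the same tetraspan fold, fell from 4619 ± 1031 to 776 ± 128 normalised counts (log2 difference -2.56 ± 0.19, limma, adjusted p = 5.16e-07) and was also lower in parenchyma than in close stroma by 1.70 ± 0.21 (adjusted p = 4.16e-04). EMP3 was lower by 1.50 ± 0.23 than in far stroma (adjusted p = 1.57e-04), while EMP2 stood at 278 ± 63.2 in far stroma and 249 ± 31.2 in parenchyma (-0.13 ± 0.18, adjusted p = 0.562), a difference whose sign turned with library-total scaling. Of the L1 family, CHL1 followed L1CAM: it had 69.97 to 219.34 normalised counts in far stroma, while close stroma had 66.57 to 163.01 and parenchyma 8.02 to 17.34. CHL1 was lower in parenchyma by 3.35 ± 0.40 against far stroma (adjusted p = 2.32e-05) and by 3.18 ± 0.43 against close stroma (adjusted p = 9.22e-04). NFASC was higher than in far stroma by 1.23 ± 0.43 (adjusted p = 0.0303), a call that was lost with edgeR, with heifers 3, 4 and 5 only, and without the far stroma or the parenchyma of single heifers (heifers 1, 4 and 5 in each region), with adjusted p from 0.0513 to 0.103.

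NCAM2, the paralogue of NCAM1, was opposite to it. It had 0 to 5.87 normalised counts in far stroma, while close stroma had 8.63 to 19.92 and parenchyma 32.09 to 37.7, with no overlap of regions (parenchyma against far stroma 3.61 ± 0.54, limma, adjusted p = 1.47e-04). ST8SIA2, an enzyme that adds polysialic acid to NCAM1, was higher by 3.88 ± 0.61 (adjusted p = 1.99e-04), and its relative ST8SIA4 did not pass (0.60 ± 0.53, adjusted p = 0.366). Of 14 sodium channel subunits 11 had a line and 9 were tested. In parenchyma against far stroma 1 was higher, 3 were lower and 5 did not pass. The 3 lower were the member SCN7A and 2 accessory subunits. SCN3B was lower by 2.39 ± 0.39 (adjusted p = 2.99e-04), as was SCN2B by 1.32 ± 0.47 (adjusted p = 0.0325). The SCN2B call was lost with library-total scaling (adjusted p = 0.1), when far stroma of heifer 1 (0.0802) or 3 (0.0538) was left out, without the parenchyma of heifer 3 (0.0923) or 4 (0.101), and with heifers 3, 4 and 5 only (0.0694).

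**Figure D5:**
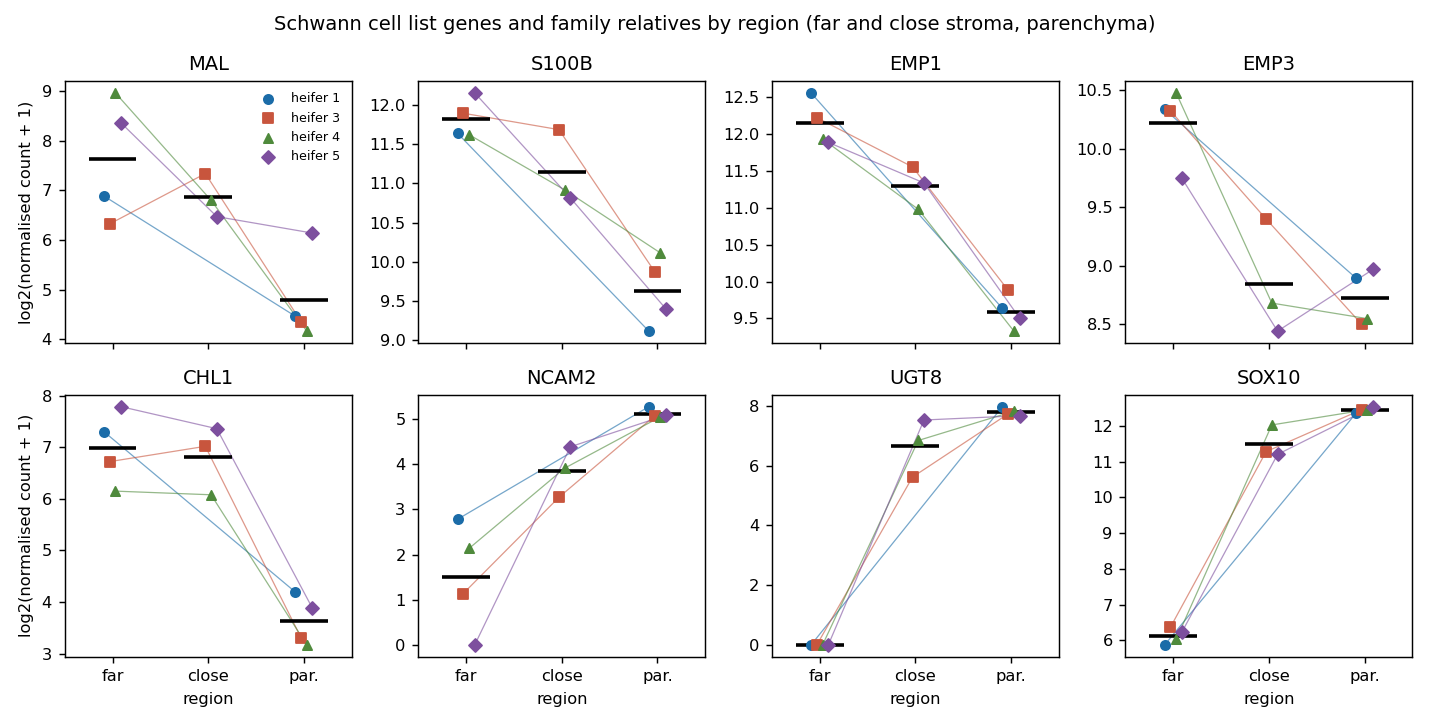
Normalised counts of MAL, S100B, EMP1, EMP3, CHL1, NCAM2, UGT8 and SOX10 on a log2(value + 1) axis in far stroma, close stroma and parenchyma (far, close, par.). Symbols are samples, lines join the samples of a heifer and black bars are region means on the log2 scale. MAL, S100B, EMP1, EMP3 and CHL1 are lower in parenchyma than in far stroma, and NCAM2, UGT8 and SOX10 are higher.

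The list of axon and glia adhesion, which also holds genes that are not adhesion molecules, was mixed. Of 13 tested, parenchyma had 6 higher and 4 lower than far stroma, and 3 did not pass (median 0.05). CADM4, an adhesion molecule of the Schwann cell surface, was higher by 2.07 ± 0.25 (limma, adjusted p = 2.59e-05), as was the scaffold ANK3 (1.99 ± 0.28, adjusted p = 9.61e-05) and NECTIN1 (2.02 ± 0.30, adjusted p = 1.21e-04), and all are also known in epithelia. CADM3, the axonal partner of CADM4, and the axonal adhesion molecule CNTN1 were chosen after their values were seen: they were lower by 2.74 ± 0.42 (adjusted p = 1.69e-04) and 3.01 ± 0.46 (adjusted p = 1.67e-04). Of 9 genes of perineurium and endoneurial fibroblasts, parenchyma had 6 higher and 1 lower, and 2 did not pass (median 1.99). SLC2A1, the glucose transporter of the perineurial barrier and of many epithelia, was higher by 2.39 ± 0.18 (adjusted p = 6.28e-07), as were SOX9 (5.26 ± 0.55, adjusted p = 7.76e-06) and CLDN1 (4.34 ± 0.58, adjusted p = 5.82e-05).

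The genes whose profile over the 11 samples was closest to each member were found by the mean absolute difference of centred log2(value + 1) values, among 10934 genes with a symbol and a mean of at least 50. For PMP22 they were DCN, the collagen-binding proteoglycan of fibroblasts (mean difference 0.14), PID1 (0.14) and ATP10A (0.15). For MBP they were ABTB2 (0.17), LRP4 (0.21) and NECTIN1 (0.24). For CNP they were ARHGEF1 (0.06), INPPL1 (0.08) and ABHD12 (0.09). For SCN7A they were NOV (0.29), EPDR1 (0.41) and SUCNR1 (0.41), for NCAM1 KIAA0408 (0.40), DKK2 (0.41) and elastin, ELN (0.46), and for L1CAM CLU (0.17), AIG1 (0.21) and LRRC3B (0.21). The nearest distances are larger for NCAM1 and SCN7A, which have few reads, than for the other 4 genes. The spans of PMP22, MBP and NCAM1 overlap with other annotated genes in the RefSeq table (assembly ARS-UCD2.0), and since no source used here states whether counting used strand, the reads of such overlaps cannot be separated.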

How the data were processed

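The deposited table, headed by the authors as normalised counts, gives a signal per gene and sample. Per the submitters' processing notes, cutadapt, STAR, HTSeq, DESeq2 and the build ARS-UCD1.2 were used, without versions or roles. Filters and the use of strand are not given in the sources used here. In every sample 100% of values were whole multiples of the worth of 1 read, which gave back totals of 7274474 to 11156909 reads. The tolerance was 0.01 of a read plus an allowance for the rounding of the deposited values. For few-read genes counting error is large.

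Log2(value + 1) was fitted in limma 3.58.1 (R 4.3.3) with a variance trend, in 1 fit of 3 regions, for genes with a highest region mean of at least 10. Benjamini-Hochberg adjustment ran over all 14596 genes, and calls are at an adjusted p under 0.05. They measure the spread between these samples. Since the values are normalised and not raw counts, limma was the test and not edgeR, as the design provided. On the recovered reads, edgeR 4.0.16 called 7315 genes in parenchyma against far stroma, 1200 in parenchyma against close stroma and 2176 in close against far stroma; DESeq2 1.42.0 was a further alternative. Further alternatives were library-total scaling, pseudocounts of 0.5 and 5, no filter or one at 50, heifers 3, 4 and 5 only, and each sample left out. The fit was also run on simulated counts without a heifer effect, a setting that differs from these data, so no conclusion is drawn from it.

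The labels name the animals, so samples are paired by heifer. Deviations from region means correlated at 0.117 to 0.383 in 10 pairs of the same heifer and at -0.349 to 0.224 in 30 pairs of different heifers.

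The 6 members and the lists were chosen with earlier results of these data known. Named were the members, up to 4 further tested genes of each of the 10 pathway lists with the smallest p in parenchyma against far stroma, and the 3 genes closest to each member. Markers of other cell types are given as counts and sums. Any other gene was chosen after its values were seen. Some genes of the lists are counted but not reported here by name. No sequence was used here.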

Additional observations from a re-analysis of the deposited data

Results flagged for a closer look

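Among the 77 genes of the pathway lists, each region of 4 samples was searched for a sample that stood apart, its gap to the nearest other sample taking more of the range than the critical value of Dixon's test at 95%. Of 154 groups 11 were found, and chance gives about 1 in 20 for normally distributed values. A group with 3 samples at 0 and the other above 0 is always found, as for SCN7A and STMN2 in parenchyma. SCN7A was at 1.51 normalised counts in the parenchyma of heifer 1 and at 0 in the other 3 heifers, a difference of 2 reads. In parenchyma, heifer 1 was highest for JUN (4701.3), ADAM10 (1805.12), NCAM2 (37.7) and ANK3 (588.13). Heifer 5 was highest there for MAL (69.58), CD81 (12342.9), TH (31.13) and STMN2 (0.92, which is 1 read). In far stroma, STMN2 was highest in heifer 4 (74.49) and NFASC in heifer 3 (37.21).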

How the results depend on the processing

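Of 354 values of the 6 genes under alternatives, 344 kept direction and side of the threshold, 7 fell below it, 3 passed it and 0 reversed. The 344 include values that could not turn direction. With no filter or a filter at 50, or where the sample left out was of a region outside the comparison, the log2 difference stayed the same by design. The same holds for the heifer as a block in parenchyma against far stroma. In parenchyma against far stroma 6 of 6 were called with any sample left out, and 4 with a filter at 50, which leaves SCN7A and NCAM1 untested. In parenchyma against close stroma 2 were called with the replicate block and with DESeq2, where CNP joined SCN7A, and 0 with a pseudocount of 5 or a filter at 50; the count ran from 0 to 2 with a sample left out. Close against far stroma gave 1 to 3 members called, the lowest without the close stroma of heifer 4. Genes called ran from 379 to 1252 in parenchyma against close stroma with a sample left out (379 without the close stroma of heifer 3, 582 without that of heifer 5, 589 without the parenchyma of heifer 3 and 589 without that of heifer 4) and numbered 2061 with DESeq2. In close against far stroma they ran from 1194 to 3632, with 1194 without the close stroma of heifer 4 and 1323 without that of heifer 5. The paired fit with the block called 1449 genes in parenchyma against close stroma, and changed no other member's call than that of CNP. The excess of the MBP to PMP22 log2 ratio in parenchyma ran from 3.63 to 4.28. The cause of these changes was not tested. SCN7A, with 2 reads in parenchyma, and NCAM1, with 27, are limited most by depth.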
